A study of Mus musculus with 27 samples.

Results

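The enzymes described here are those that add or remove methyl groups on histone lysines and those that remove acetyl groups. They were taken by gene symbol: every row whose symbol began with Kdm, Kmt, Setd, Hdac or Sirt followed by a digit, together with Ezh1, Ezh2, Ehmt1 and Ehmt2, and without Kdm5d and pseudogenes. This gave 53 of the 36333 genes in the table. They comprised 18 methyltransferases and SET proteins, 17 demethylases, 11 zinc-dependent deacetylases and 7 sirtuins. Kmt5b and Kmt5c carry older symbols in the table (Suv420h1 and Suv420h2) and were therefore counted with the other histone methyltransferases, not here.

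RNA-seq of liver, omental adipose tissue and skeletal muscle was analysed from male *Mlx*KO mice aged 5 months (4 samples per tissue) and 20 months (5 samples per tissue), 27 samples in all. The mice were a cross of Gt(ROSA)26Sortm1(cre/ERT2)Tyj/J mice, on a B6.129 background, with Mlx Flox/Flox animals. Every mouse, at both ages, had been given 5 tamoxifen injections (75 mg/kg) from weaning, once it weighed at least 15 g, so that a Cre recombinase driven from the ubiquitous ROSA26 promoter would remove part of *Mlx* throughout the body after birth. Young and old mice shared the intended deletion and the drug. How complete the excision was in each tissue and at each age is not shown by these values, but it differed between tissues. By the authors' qRT-PCR on mice bearing the numbers of the young samples, most *Mlx* transcript was left in muscle, less in adipose tissue and least in liver. The same order held in older mice whose numbers end like those of the old samples. Comparisons of muscle with the other tissues therefore set unequal losses of *Mlx* side by side. Samples are called here by their names in the labels, in which X5 precedes the 5-month and X18 the 20-month samples and the letter L, F or S stands for liver, adipose tissue or muscle. The last numbers of the 4 young samples recur in all 3 tissues (X5L4299, X5F4299 and X5S4299, for example) and were taken as mouse numbers, whereas those of the old samples differ between tissues. The X18 of the older samples does not match their labelled age of 20 months. The label is followed here, but the authors list older mice with matching number endings at the age that X18 gives. The exact age of the old group is therefore in doubt. The same list of the authors has the 4 young numbers as mouse numbers. WT samples were not analysed here, so each age difference below is one within *Mlx*KO mice, and the part of *Mlx* loss in it cannot be told apart from that of age.

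Histone lysine methylation is read as a local instruction. Methylation of H3K4 marks active promoters and enhancers, H3K36 methylation covers transcribed gene bodies, and methylation of H3K9 or H3K27 accompanies silencing. SET-domain methyltransferases use S-adenosylmethionine, most demethylases are JmjC-domain dioxygenases that need iron, oxygen and 2-oxoglutarate, and the LSD enzymes use FAD. Acetyl groups are removed by zinc-dependent deacetylases (HDACs) and by sirtuins, which consume NAD and so respond to metabolic state. Mlx dimerizes with MondoA or ChREBP, binds E-box sequences and regulates genes of glucose and lipid use.

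Depth ranged from 14384695 to 25673919 reads on genes per sample, and the values are reads scaled by the authors to CPM and then by a factor for each sample. A count of 3 reads corresponded to a value of 0.0703 to 0.242. Mlx had values of 24.2 to 32.4 in liver at 5 months and 18.8 to 27.8 at 20 months, and lay between 7.04 and 13.9 in the other tissues. Those reads can come from exons that are kept, so the level is no check of the excision. Summed markers of each tissue were highest in that tissue (Alb, Apoa1, Ttr and Tat in liver, Adipoq, Plin1, Lep and Cidec in adipose tissue, Acta1, Ckm, Myh4 and Tnnt3 in muscle). Adipose samples also held myofibre RNA, with a summed value for the 4 myofibre genes of 327 to 804 at 5 months and 96.2 to 547 at 20 months, against at least 115183 in muscle. In bulk tissue, fewer cells of a type and less RNA per cell cannot be told apart. The old liver X18L74 stood apart from its group, with a summed hepatocyte marker value of 38878 against 73901 to 89483 in the other 4. Without it 13 enzymes were called in liver, but not the same ones, since Hdac11 (adjusted p = 0.0676) and Kdm6b (adjusted p = 0.0518) were no longer among them.

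Of the 53 enzymes, 52 passed the filter in every comparison (4 or more samples with a value of 1 or higher). The exception was Kdm4d, an H3K9 demethylase of the testis, whose values never exceeded 0.406. Hdac9 in liver passed only through its 20-month samples. Reads could have been shared with near copies for part of the transcript of Hdac1 (58.7% of its 50-base words occur elsewhere, mostly in Gm10093), Setd1a (54.0%, Gm49388), Setd3 (37.6%, Gm14026) and Sirt5 (36.2%, Wdr31). For Kdm2b the share was 12.5% (mostly Gm12397). On the same strand, Sirt7 overlaps exons of Mafg, and Kdm2b those of Gm44574. The strand setting of the counting is not given in the sources used here. Values of genes that overlap on opposite strands (Hdac11, Kdm2b, Kdm7a, Kdm5a and Sirt3 among them) are therefore uncertain too.

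At 5 months the enzymes differed widely in level per kb of transcript (the deposited value divided by transcript length, which allows genes to be compared). In liver Sirt3, the main mitochondrial deacetylase, had the highest value per kb, 53.9, followed by Setd3, an actin histidine methyltransferase, at 46.1 and Sirt2, the cytosolic sirtuin, at 33.3. In adipose tissue Setd3 (39.4) and Sirt2 (33.4) led. In muscle Setd3 (65.8) and the H3K4 monomethyltransferase Setd7 (65.2) stood almost level, ahead of Sirt2 (57.6). Kdm4d was last in all 3 tissues, and Hdac9 was next to last in liver and adipose tissue. The mean deposited value was highest in muscle for 23 of the 52 enzymes, in adipose tissue for 15 and in liver for 14.

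Differences between tissues were the rule. Liver and adipose tissue differed for 34 of 52 enzymes (13 higher in liver), liver and muscle for 37 (14 higher in liver) and adipose tissue and muscle for 29 (12 higher in adipose tissue), where 76.4%, 72.9% and 72.8% of all genes tested were called, so these counts are near or below the background. The direction of these counts depended on the scaling. With scaling that ignored the 20 genes of highest abundance, the median of all genes moved to -0.92, -0.20 and 0.80 on the log2 scale, and 4 of 49, 10 of 36 and 36 of 42 called enzymes were then higher in the first tissue. With quantile normalization 11 of 40, 12 of 36 and 17 of 34 were. The enzymes with the largest differences, given next, kept their direction under every alternative tried. Their sizes, ratios and adjusted p are those of the deposited scaling, and the sizes shift with the scaling too, most of all between liver and adipose tissue.

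Setd7 showed the widest range. Its values in the 4 mice were 27.6, 26.3, 11.9 and 11.5 in liver, 149.6, 261, 129.8 and 106 in adipose tissue and 585, 497, 383 and 469 in muscle, with no overlap between any of the tissues. The mean in liver was 0.0400 times that in muscle (log2 difference -4.67, SE 0.27, adjusted p = 1.79e-14) and 0.120 times that in adipose tissue (-3.02, SE 0.27, adjusted p = 1.70e-10).

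Sirt3 was highest in liver. It measured 81.5, 66.8, 102 and 96.4 in liver against 5.33, 5.5, 6.6 and 10.4 in adipose tissue and 12.8, 11.8, 22.1 and 16.1 in muscle, that is, 12.5 times the adipose mean (3.48, SE 0.18, adjusted p = 1.91e-15) and 5.53 times the muscle mean (2.41, SE 0.18, adjusted p = 2.26e-12). Hdac11, the class IV deacetylase, was likewise a liver enzyme in these mice. Its liver values of 52.8, 26.3, 46 and 41.8 all lay above those in adipose tissue (7.34, 17, 5.01 and 19.3) and muscle (6.84, 5.0, 7.28 and 8.71), with log2 differences of 1.83 (adjusted p = 1.47e-05) and 2.40 (adjusted p = 2.44e-07). Kdm1b, which removes methyl groups from H3K4, averaged 40.04 ± 7.39 (SD, n = 4) in liver and 11.5 ± 2.1 in adipose tissue (log2 difference 1.72, SE 0.13, adjusted p = 7.74e-12). Sirt7, a nucleolar sirtuin, averaged 27.4 ± 1.96 in liver, 18.1 ± 2.19 in adipose tissue and 7.78 ± 0.411 in muscle, and all 3 groups were apart from each other (liver against muscle 1.69, adjusted p = 3.65e-11, adipose tissue against muscle 1.11, adjusted p = 1.23e-07).

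The class IIa deacetylases, which bind MEF2 factors and have little catalytic activity of their own, were lowest in liver. Hdac9 had 0.509, 0.364, 0.570 and 0.880 in liver, 2.81, 1.18, 2.85 and 3.43 in adipose tissue and 6.84, 19.9, 7.36 and 17.7 in muscle (liver against muscle -3.01, adjusted p = 2.95e-09, adipose tissue against muscle -1.87, adjusted p = 9.09e-06). The tissues did not overlap, but the muscle values fell into a low and a high pair of mice. Hdac4 averaged 16.4 ± 1.69 in liver and 79.2 ± 24.3 in muscle (-2.16, adjusted p = 2.04e-10). Hdac7 averaged 10.3 ± 2.74 in liver and 54.8 ± 11.4 in adipose tissue (-2.32, adjusted p = 5.28e-11). Ezh1, a catalytic subunit of Polycomb repressive complex PRC2, was also low in liver, at 25.8 ± 3.99 against 91.1 ± 8.13 in adipose tissue (-1.79, adjusted p = 2.58e-13).

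Between adipose tissue and muscle, the enzymes higher in muscle were led by Kdm8, a JmjC hydroxylase, with 2.32 ± 0.0920 in adipose tissue and 12.5 ± 3.39 in muscle (-1.99, adjusted p = 2.43e-11), and by Kmt5a, the H4K20 monomethyltransferase, with 34.3 ± 7.33 and 112 ± 6.83 (-1.70, adjusted p = 7.11e-11). Hdac1, the catalytic subunit of several corepressor complexes, was higher in adipose tissue, with 37.1 ± 5.76 against 14.5 ± 1.25 (1.28, adjusted p = 5.05e-10). So was Kdm2b, an H3K36 demethylase that also targets Polycomb complexes to CpG islands, with 21.7 ± 0.917 against 11.5 ± 0.827 (0.86, adjusted p = 5.19e-06).

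**Figure D1:**
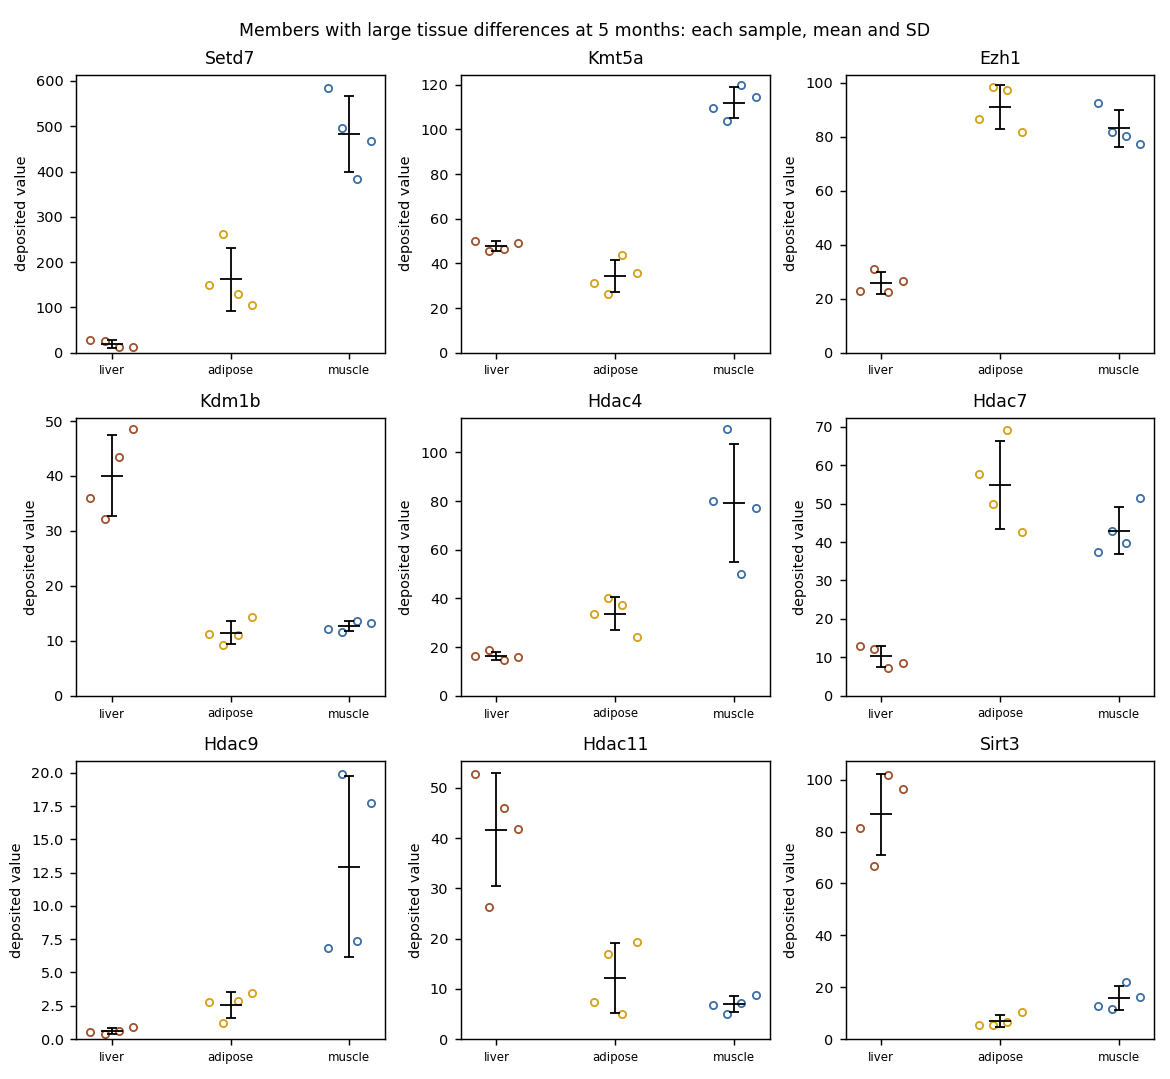
Deposited value (vertical axis, reads scaled by the authors, from 0) of 9 enzymes in liver, adipose tissue and muscle at 5 months; circles are the 4 samples of a tissue, bars the mean and SD. Sirt3, Hdac11 and Kdm1b lie above the other tissues in liver, whereas Setd7, Ezh1, Hdac4, Hdac7 and Hdac9 are lowest there.

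With age, 13 of 52 enzymes were called in liver, of which 4 were higher and 9 lower in the old mice. In adipose tissue 5 were called (2 higher) and in muscle 14 (4 higher). Called means an adjusted p below 0.05 in limma over all genes of the tissue. Among all genes tested, 19.8% were called in liver (10% higher, 9.79% lower), 19.1% in adipose tissue (9.75% higher, 9.35% lower) and 19.3% in muscle (9.13% higher, 10.1% lower). The enzymes called lower made up 17.3% of those tested in liver, 5.77% in adipose tissue and 19.2% in muscle. The groups of the 2 ages did not overlap for 11 enzymes in liver, 6 in adipose tissue and 14 in muscle, that is, 21.2%, 11.5% and 26.9% of the 52, beside 19.1%, 17.4% and 17.3% of all genes. In all, 26 enzymes were called in some tissue and 26 in none. The called ones included 6 that were called in 2 tissues, and none was called in all 3. Hdac9 is among these 6, but in liver it met the filter through its 20-month samples alone.

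The median log2 change of the 52 enzymes was -0.16 in liver, -0.18 in adipose tissue and -0.11 in muscle, while that of all genes tested was 0.00, 0.01 and 0.02. The enzymes had a negative change in 71.2%, 69.2% and 63.5% of cases, against 49.8%, 49.2% and 48.0% of all genes. By family, the demethylases had medians of -0.33, -0.23 and -0.14 in liver, adipose tissue and muscle, the methyltransferases and SET proteins -0.16, -0.29 and -0.15, and the sirtuins 0.23, 0.18 and 0.11. The zinc-dependent deacetylases had medians of 0.15, -0.11 and -0.13. These medians kept their sign under every scaling, except that of the methyltransferases in liver, which became 0.02 in a scaling that ignored the 20 genes of highest abundance.

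That scaling also changed the balance of calls. It moved the median of all genes to 0.17 in liver and 0.09 in muscle, and the calls became 8 higher and 2 lower in liver, 6 higher and 4 lower in muscle and 2 higher and 1 lower in adipose tissue. In liver, the calls of all 6 demethylases and of Kmt2c ended (adjusted p from 0.0913 to 0.419), and those of Sirt3, Hdac3, Hdac5 and Hdac10, all higher, were added. In adipose tissue Hdac4 and Kmt2d lost theirs (adjusted p of 0.0585 and 0.0596). In muscle Kdm4a, Setd1a, Setd1b, Ezh1, Sirt7 and Hdac10 lost theirs (0.0509 to 0.118), while Kdm5a and Hdac2 were added as higher. Setd1b, Kdm5b, Kdm7a and Sirt7, each called in 2 tissues before, were thus called in only 1. Relative to the median of all genes, the median of the enzymes remained at -0.15 in liver, -0.12 in muscle and -0.19 in adipose tissue. The reads on those 20 genes were 19.8% to 25.9% of all reads for liver samples, 9.56% to 14.2% for adipose and 26.2% to 29.2% for muscle samples. With quantile normalization the split was 4 higher and 8 lower in liver, 2 and 2 in adipose tissue and 6 and 10 in muscle.

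**Figure D2:**
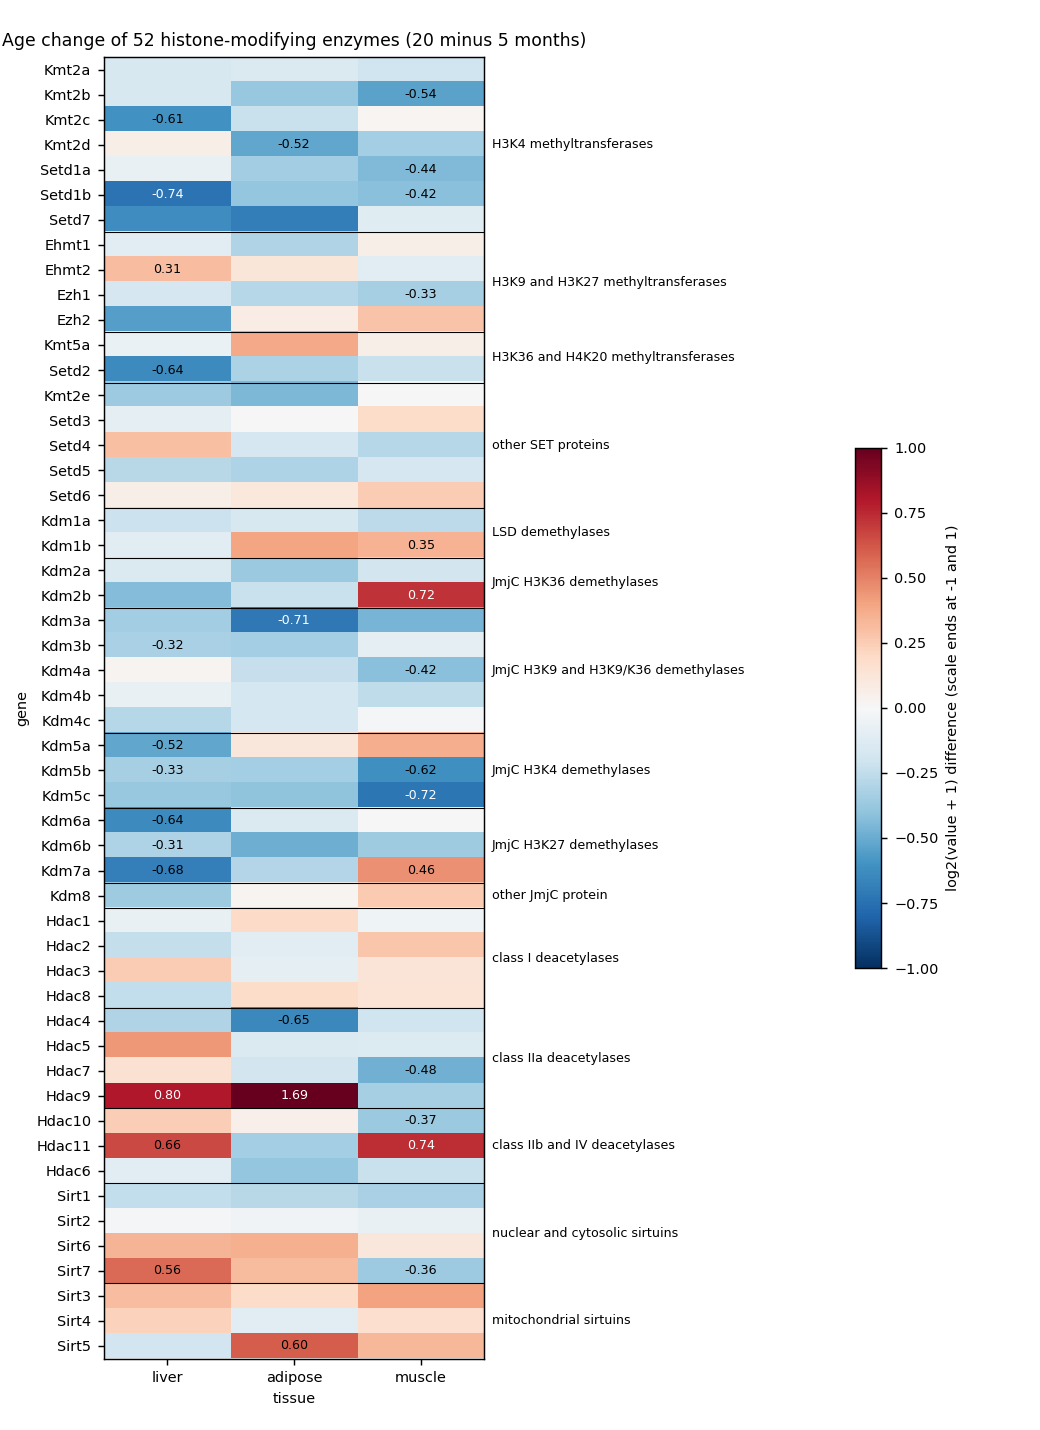
Difference of log2(value + 1) between 20 and 5 months (colour, blue lower and red higher at 20 months) for 52 enzymes (rows, grouped by class) in 3 tissues (columns); a printed number marks an adjusted p below 0.05. Of the numbers printed in liver 9 of 13 are negative, in adipose tissue 3 of 5 and in muscle 10 of 14.

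Mlx dimers bind E-boxes, so the promoters of the enzymes were searched for the palindrome CACGTG, which reads the same on both strands. RefSeq promoter windows of GRCm38.p6 (250 bases before to 50 after the start) were matched for 42 of the 53 enzymes. They held CACGTG in 5 enzymes, 11.9%, against 8.09% of the 27025 genes with a window. A stretch with a match is shown for each of these 5, with CACGTG in capitals. In Kdm4c only 1 of 2 windows held it. The longer carbohydrate response elements, which the paper names as the classical sites of Mlx dimers, were not searched. The windows of Sirt1 and Ehmt2 hold 2 matches each, of which 1 is shown.
Kdm6a: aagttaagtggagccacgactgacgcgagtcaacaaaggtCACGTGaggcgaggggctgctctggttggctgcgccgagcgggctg
Ehmt2: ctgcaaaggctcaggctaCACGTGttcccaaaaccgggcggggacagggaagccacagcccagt
Hdac5: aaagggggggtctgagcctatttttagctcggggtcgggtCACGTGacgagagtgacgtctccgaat
Sirt1: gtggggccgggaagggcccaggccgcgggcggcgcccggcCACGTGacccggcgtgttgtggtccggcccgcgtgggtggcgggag
Kdm4c: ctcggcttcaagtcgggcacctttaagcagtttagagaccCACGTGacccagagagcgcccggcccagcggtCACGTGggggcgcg

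These stretches lie at chrX:18162508-18162593 (plus strand, Kdm6a), chr17:34898224-34898287 (plus, Ehmt2), chr11:102230143-102230209 (minus, Hdac5), chr10:63339105-63339190 (minus, Sirt1) and chr4:74251754-74251839 (plus, Kdm4c). The match shown, the first of them where 2 are shown, began 27 bases before the start in Kdm6a, 232 in Ehmt2, 115 in Sirt1 and 85 in Kdm4c, and at base 4 of the transcript in Hdac5. Of these enzymes, Kdm6a was lower and Ehmt2 higher with age in liver, and Hdac5, Sirt1 and Kdm4c were called in no tissue. The match is a description of the letters and no evidence of binding.

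Among the H3K4 methyltransferases (the MLL family Kmt2a to Kmt2d, the SET1 enzymes Setd1a and Setd1b, and Setd7), 2 of 7 were lower with age in liver, 1 in adipose tissue and 3 in muscle, and none was higher. Setd1b, which with Setd1a places most H3K4 trimethylation at promoters, had values in liver of 58.1, 64.5, 48.8 and 52.5 at 5 months and 33.1, 34.8, 29.6, 39.7 and 28.7 at 20 months. Every old liver lay below every young one, and the mean fell to 0.593 of that at 5 months (log2 change -0.74, SE 0.12, adjusted p = 0.00822). In muscle Setd1b measured 53.6, 40.1, 43.8 and 52.7 at 5 months and 29.1, 39, 40.6, 35.6 and 32.5 at 20 months, and the ages overlapped (-0.42, SE 0.13, adjusted p = 0.0388), and in adipose tissue its log2 change was -0.38 (adjusted p = 0.0757).

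Kmt2c, which monomethylates H3K4 at enhancers, fell in liver with 53.2, 56.2, 36.7 and 52 at 5 months and 33.3, 32.7, 23.9, 30.8 and 40.3 at 20 months (log2 change -0.61, SE 0.16, adjusted p = 0.0278). The ages overlapped through X5L5238 and X18L74. Kmt2d, its close relative, instead fell in adipose tissue, with 136, 124, 122 and 97.3 at 5 months and 90.1, 66.9, 71.3, 85 and 107 at 20 months (-0.52, SE 0.16, adjusted p = 0.0469), and again the ages overlapped. Its log2 change was 0.06 (adjusted p = 0.748) in liver and -0.34 (adjusted p = 0.118) in muscle.

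Kmt2b and Setd1a fell in muscle. Kmt2b had 81.1, 72.6, 64.6 and 75.2 at 5 months and 43.7, 53, 58.3, 52.6 and 44.4 at 20 months, with no overlap (-0.54, SE 0.11, adjusted p = 0.00925). Setd1a had 71.1, 63.7, 65.6 and 63.1 at 5 months and 45.5, 58.8, 54, 42.5 and 42.9 at 20 months, again with no overlap (-0.44, SE 0.11, adjusted p = 0.0213). Setd7, the enzyme with the largest tissue range, missed the threshold in each tissue, with log2 changes of -0.62 (adjusted p = 0.162) in liver, -0.69 (adjusted p = 0.0694) in adipose tissue and -0.12 (adjusted p = 0.464) in muscle. In adipose tissue its values were 149.6, 261, 129.8 and 106 at 5 months and 105, 101, 69.6, 98.8 and 101 at 20 months, and every old sample lay below every young one.

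Of the 4 enzymes of H3K9 and H3K27 methylation, 1 was higher in liver and 1 lower in muscle. Ehmt2 (G9a), which with Ehmt1 makes H3K9 mono- and dimethylation, was higher in old livers, at 86.5, 76.2, 81.2 and 75.1 at 5 months and 89.4, 97.2, 112, 95.8 and 101 at 20 months, with no overlap (0.31, SE 0.10, adjusted p = 0.0433). Ezh1 fell in muscle, with 92.7, 81.9, 80.4 and 77.4 at 5 months and 60.4, 71.6, 65.3, 66.3 and 64.9 at 20 months, with no overlap (-0.33, SE 0.09, adjusted p = 0.0236), and its changes in liver and adipose tissue were -0.16 (adjusted p = 0.324) and -0.29 (adjusted p = 0.139). Ezh2, the PRC2 subunit of dividing cells, was low everywhere. It averaged 4.39 ± 0.960 at 5 months and 2.68 ± 0.647 at 20 months in liver (-0.55, adjusted p = 0.0534), 6.34 ± 1.18 at 5 months and 6.82 ± 1.95 at 20 months in adipose tissue (0.07, adjusted p = 0.799) and 3.68 ± 0.727 at 5 months and 4.72 ± 0.850 at 20 months in muscle (0.29, adjusted p = 0.203).

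Setd2, the only enzyme that trimethylates H3K36, fell in liver. Its liver values were 79.3, 94.9, 65.4 and 72.5 at 5 months and 54.7, 49.1, 46.3, 47.5 and 48.9 at 20 months, and all old livers lay below all young ones. The mean at 20 months was 0.632 of that at 5 months (log2 change -0.64, SE 0.12, adjusted p = 0.00890). In adipose tissue and muscle it had log2 changes of -0.31 (adjusted p = 0.153) and -0.22 (adjusted p = 0.166). Kmt5a did not pass the threshold, with 47.8 ± 2.21 at 5 months and 45.8 ± 4.24 at 20 months in liver (-0.06, adjusted p = 0.654), 0.38 (adjusted p = 0.163) in adipose tissue and 0.06 (adjusted p = 0.665) in muscle. The other SET proteins (Kmt2e, Setd3, Setd4, Setd5 and Setd6), several of which modify proteins other than histones, were called in no tissue, and their changes ranged from -0.36 to 0.30 in liver, from -0.45 to 0.10 in adipose tissue and from -0.28 to 0.26 in muscle.

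Among the 16 demethylases tested, 6 were lower and none higher in liver, 1 was lower in adipose tissue, and 3 were lower and 3 higher in muscle. With the scaling that ignored the 20 genes of highest abundance, none was called in liver, and in muscle 2 were lower and 4 higher. The LSD enzymes remove mono- and dimethylation of H3K4. Kdm1a (LSD1) did not pass the threshold, with changes of -0.22 (adjusted p = 0.226), -0.16 (adjusted p = 0.229) and -0.26 (adjusted p = 0.134) in liver, adipose tissue and muscle. Kdm1b (LSD2) rose in muscle, with 12.2, 11.6, 13.5 and 13.2 at 5 months and 15.6, 18.8, 16.4, 15.7 and 15.6 at 20 months, and the ages did not overlap (0.35, SE 0.10, adjusted p = 0.0349). Kdm2b rose there as well. Its values were 10.6, 11.2, 12.5 and 11.8 at 5 months and 15.5, 18, 19.8, 23.6 and 22.6 at 20 months, 1.72 times the 5-month mean (0.72, SE 0.13, adjusted p = 0.00532).

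Of the H3K9 demethylases, Kdm3a, which is induced by low oxygen and acts on genes of fat oxidation, fell in adipose tissue. It measured 47, 64, 36.9 and 33.9 at 5 months and 32.1, 24, 22.9, 26.8 and 27.5 at 20 months, with no overlap and a mean 0.587 of the younger one (-0.71, SE 0.18, adjusted p = 0.0318). Its relative Kdm3b fell in liver, with 41, 46.6, 44.1 and 47 at 5 months and 32.3, 37.3, 32.5, 36.3 and 39.2 at 20 months, again without overlap (-0.32, SE 0.10, adjusted p = 0.0401). Kdm4a, which acts on trimethylated H3K9 and H3K36, fell in muscle with 60.5, 57.1, 55 and 55 at 5 months and 39.1, 49.3, 48.7, 39.1 and 36.8 at 20 months (-0.42, SE 0.11, adjusted p = 0.0220), while Kdm2a, Kdm4b and Kdm4c were called in no tissue.

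The H3K4 demethylases of the KDM5 family were each called somewhere. Kdm5b was lower at 20 months in both liver and muscle. In liver it had 28.9, 30.8, 28.2 and 25.4 at 5 months and 20.00, 23.2, 21.8, 24.5 and 22.1 at 20 months (-0.33, SE 0.10, adjusted p = 0.0432) and in muscle 30.1, 26.7, 24 and 24.2 at 5 months and 18, 18, 18.1, 14.3 and 15.5 at 20 months (-0.62, SE 0.11, adjusted p = 0.00550), and in neither tissue did the ages overlap. Kdm5c, the X-linked member, fell in muscle with 69.5, 97.4, 50.9 and 77.9 at 5 months and 49.7, 44.1, 42.9, 43.8 and 36.6 at 20 months (-0.72, SE 0.16, adjusted p = 0.0131). Kdm5a fell in liver, where it measured 42.2, 52.3, 47.1 and 44.6 at 5 months and 34.4, 25.9, 31.3, 28.3 and 43 at 20 months, and X18L74 lay within the young range (-0.52, SE 0.14, adjusted p = 0.0306).

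All 3 demethylases of H3K27 were lower in old livers, each with a call that ended under that scaling (adjusted p of 0.0913 for Kdm6a, 0.301 for Kdm6b and 0.122 for Kdm7a). Kdm6a (UTX), which also sits in the Kmt2c and Kmt2d complexes, measured 28.4, 26.3, 22.8 and 24.1 at 5 months and 18.4, 17.3, 10.5, 17.2 and 17.7 at 20 months, with no overlap (-0.64, SE 0.16, adjusted p = 0.0229). Kdm6b (JMJD3), an enzyme induced by inflammatory signals, measured 62.1, 63.4, 53.5 and 58.9 at 5 months and 50.8, 50.7, 48.3, 48.3 and 41 at 20 months, again without overlap (-0.31, SE 0.10, adjusted p = 0.0483). Kdm7a, which removes dimethylation of H3K9 and H3K27, had 48.4, 42.1, 38.4 and 34.3 at 5 months and 27.3, 22.5, 18, 23.2 and 36.5 at 20 months (-0.68, SE 0.18, adjusted p = 0.0269), and the ages overlapped through X18L74.

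In muscle Kdm7a went the other way. Its values there were 63.3, 57.2, 52.1 and 68.8 at 5 months and 86.9, 86.4, 79.9, 72.1 and 89.7 at 20 months, all old samples lying above all young ones (0.46, SE 0.10, adjusted p = 0.0141). Kdm6a did not pass the threshold in muscle (-0.00, adjusted p = 0.982) or in adipose tissue (-0.14, adjusted p = 0.509). Kdm6b had a log2 change of -0.49 (adjusted p = 0.0651) in adipose tissue, where every old sample lay below every young one, and of -0.36 (adjusted p = 0.205) in muscle.

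Of the 11 zinc-dependent deacetylases, 2 were higher in liver, 1 higher and 1 lower in adipose tissue, and 1 higher and 2 lower in muscle. None of the class I enzymes (Hdac1, Hdac2, Hdac3 and Hdac8), which carry most histone deacetylase activity in corepressor complexes, was called in any tissue. Hdac3, the enzyme of the NCoR complexes that sets the daily rhythm of hepatic lipid genes, averaged 33.3 ± 6.62 at 5 months and 39.5 ± 2.86 at 20 months in liver (0.25, adjusted p = 0.182), and had log2 changes of -0.10 (adjusted p = 0.482) in adipose tissue and 0.13 (adjusted p = 0.338) in muscle. Hdac2 in muscle was at 41.6, 42.2, 42.4 and 36.2 at 5 months and 44.4, 45.9, 57, 48.1 and 51.9 at 20 months, so that all old samples exceeded all young ones, but its adjusted p was 0.0706.

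Hdac9 gave the largest change of any of the enzymes. In adipose tissue its values were 2.81, 1.18, 2.85 and 3.43 at 5 months and 7.4, 13, 6.99, 10.8 and 14.4 at 20 months, with no overlap, and the mean rose 4.09-fold (log2 change 1.69, SE 0.27, adjusted p = 0.0105). In liver it measured 0.509, 0.364, 0.570 and 0.880 at 5 months and 1.02, 2.05, 1.75, 1.36 and 2.81 at 20 months, which rested on 5 to 11 reads per sample at 5 months and 20 to 56 at 20 months (0.80, SE 0.21, adjusted p = 0.0254). Without Hdac9, which met the filter in liver through the older group alone, 12 enzymes were called there, 3 of them higher. In muscle its values were 6.84, 19.9, 7.36 and 17.7 at 5 months and 16, 6.18, 8.39, 6.76 and 10.5 at 20 months, and the ages overlapped fully (-0.33, adjusted p = 0.493).

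Markers of other cell types moved in the same tissues. In adipose tissue the summed value of the 4 macrophage markers (Adgre1, Cd68, Csf1r and C1qa) was 235 to 488 at 5 months and 379 to 1304 at 20 months, and 2 of 4 were called higher. That of the 4 endothelial markers was 564 to 1269 and 358 to 666 (2 of 4 lower). The 4 proliferation markers (Mki67, Top2a, Ccnb1 and Cdk1) summed to 9.83 to 18.2 and 16.03 to 80.1 in adipose tissue (3 of 4 higher), and the 4 T cell markers to 4.62 to 10.1 and 5.8 to 53.2 (1 of 4 higher). The erythroid markers had 1 of 3 tested lower there, and the mesothelial markers 1 of 4 lower.

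In liver the hepatocyte markers summed to 92261 to 147373 at 5 months and 38878 to 89483 at 20 months (1 of 4 lower). By this sum every old liver lay below every young one. Of the adipocyte markers, the 1 tested in liver was lower. The macrophage markers summed to 96.03 to 143 at 5 months and 109 to 316 at 20 months (1 of 4 higher), and the fibroblast markers to 194 to 324 and 278 to 407 (2 of 4 higher). Erythroid markers summed to 486 to 611 and 732 to 966 (3 of 3 tested higher). The 4 T cell markers summed to only 1.16 to 3.28 at 5 months and 2.61 to 12.4 at 20 months. Of these 4, 2 passed the filter, and both were called higher. With a median sum of 1.35 at 5 months, both could not reach a value of 1 in most young livers. The filter thus favoured T cell markers that were higher at 20 months, and their count decides little. Proliferation markers had 1 of 3 tested higher, and endothelial markers 1 of 4 lower. Apart from the adipocyte list in liver, none of the genes of these lists was at 0 throughout a group of liver or adipose samples. The part of all these cells in the changes of Hdac9 and the other enzymes was not tested.

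Of the other class IIa enzymes, Hdac4 fell in adipose tissue, with 33.5, 40.1, 37.4 and 24.2 at 5 months and 30.8, 16.8, 16.7, 21.3 and 21.3 at 20 months, and the ages overlapped (-0.65, SE 0.20, adjusted p = 0.0498). It had a log2 change of -0.30 (adjusted p = 0.0726) in liver, where the ages did not overlap, and of -0.20 (adjusted p = 0.483) in muscle. Hdac7 fell in muscle, with 37.5, 42.9, 39.7 and 51.4 at 5 months and 25, 28.3, 32.1, 33.7 and 33.1 at 20 months and no overlap (-0.48, SE 0.12, adjusted p = 0.0216). Hdac5 did not pass the threshold in any tissue, although its liver change was 0.43 (adjusted p = 0.0866).

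Hdac11, which removes long-chain fatty acyl groups, was higher with age in liver and muscle. In liver it measured 52.8, 26.3, 46 and 41.8 at 5 months and 46.2, 75.3, 80.7, 59.7 and 67.4 at 20 months, and 1 old sample lay within the young range (0.66, SE 0.21, adjusted p = 0.0463). In muscle it had 6.84, 5.0, 7.28 and 8.71 at 5 months and 10.5, 13.8, 15.5, 8.97 and 12.6 at 20 months, with no overlap (0.74, SE 0.18, adjusted p = 0.0171). Its values in adipose tissue scattered from 4.97 to 19.3 in both ages (-0.34, adjusted p = 0.547). Hdac10, a polyamine deacetylase, fell in muscle with 12.4, 11.8, 12.1 and 13.2 at 5 months and 7.82, 10.1, 9.91, 10.5 and 8.55 at 20 months (-0.37, SE 0.11, adjusted p = 0.0424), and Hdac6, the tubulin deacetylase, was not called anywhere. In muscle the 4 fibroblast markers were all called lower with age, with a summed value of 855 to 1210 at 5 months and 452 to 787 at 20 months, and 2 of 4 macrophage markers, 1 of 4 endothelial markers and 2 of 3 tested erythroid markers were lower. The part of these cells in the muscle changes was not tested.

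Among the sirtuins, Sirt7 was called in 2 tissues, in opposite directions. In liver its values were 27.6, 27.5, 24.8 and 29.6 at 5 months and 34.7, 37.4, 47.4, 45.5 and 40.9 at 20 months, all old samples lying above the young ones (0.56, SE 0.11, adjusted p = 0.0119). In muscle, where the level is low, they were 7.53, 8.3, 7.91 and 7.39 at 5 months and 5.87, 5.12, 6.51, 5.73 and 5.99 at 20 months, all old samples lying below (-0.36, SE 0.11, adjusted p = 0.0422). The muscle call ended with scaling that ignored the 20 genes of highest abundance and in most fits that left out 1 sample. The liver call ended when a trend on transcript length and GC was removed. In adipose tissue Sirt7 had a log2 change of 0.32 (adjusted p = 0.203). Sirt5, the mitochondrial desuccinylase, rose in adipose tissue, with 3.09, 2.36, 3.55 and 4.71 at 5 months and 5.54, 6.58, 5.56, 5.11 and 5.38 at 20 months, with no overlap (0.60, SE 0.16, adjusted p = 0.0349).

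The sirtuins most often linked to ageing did not pass the threshold. Sirt1, the nuclear deacetylase of PGC-1α and FOXO factors, averaged 16.9 ± 3.25 at 5 months and 14.1 ± 2.45 at 20 months in liver (-0.25, adjusted p = 0.270), 19.9 ± 4.59 at 5 months and 16 ± 2.03 at 20 months in adipose tissue (-0.27, adjusted p = 0.206) and 22.5 ± 3.94 at 5 months and 17.6 ± 1.22 at 20 months in muscle (-0.32, adjusted p = 0.0849). Sirt3 had log2 changes of 0.31 (adjusted p = 0.121), 0.18 (adjusted p = 0.472) and 0.40 (adjusted p = 0.0891) in the same order. Sirt6, which deacetylates H3K9 at glycolytic genes and telomeres, had 0.34 (adjusted p = 0.195), 0.35 (adjusted p = 0.146) and 0.11 (adjusted p = 0.677). Missing the threshold does not show that the levels were equal.

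**Figure D3:**
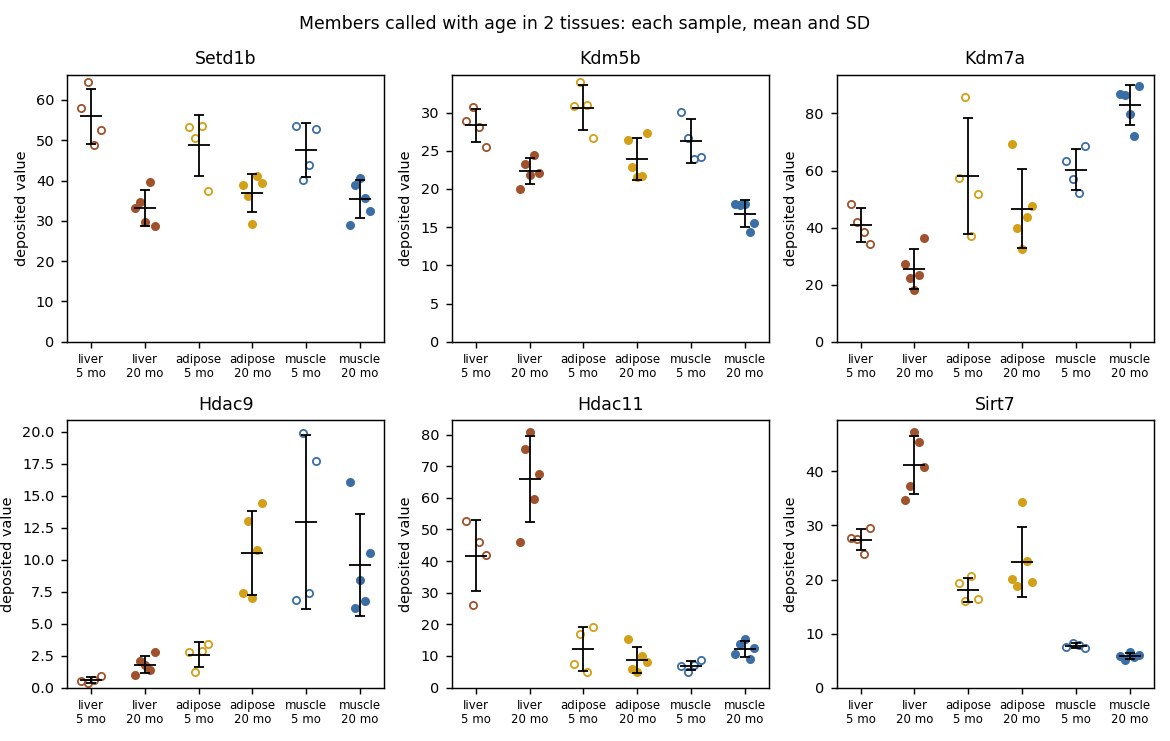
Deposited value (vertical axis, from 0) of the 6 enzymes called with age in 2 tissues, in every sample of liver, adipose tissue and muscle at 5 months (open circles) and 20 months (filled circles), with mean and SD (n = 4 and 5). Setd1b and Kdm5b are lower with age in liver and muscle, Hdac11 is higher in both, Hdac9 is higher in liver and adipose tissue, and Kdm7a and Sirt7 move in opposite directions in liver and muscle. Hdac9 in liver passed the filter only through its 20-month samples.

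How firmly these calls held against the loss of a single sample varied. With each sample left out in turn, Setd1b, Setd2 and Sirt7 in liver were called in 9 of 9 fits, Kdm6a in 7, Hdac9 in 4, Kmt2c and Kdm7a in 3, Kdm5a, Hdac11 and Ehmt2 in 2, and Kdm5b, Kdm3b and Kdm6b in 1. The count in liver fell to 4, 3, 5 and 7 without X5L4299, X5L5001, X5L5238 and X5L5239, and to 4, 4 and 5 without X18L17, X18L18 and X18L19. In adipose tissue Hdac9 was called in 9 of 9 fits, Kdm3a, Sirt5 and Kmt2d in 3 and Hdac4 in 2. The adipose count was 1 without X5F4299, X5F5001, X18F37, X18F38 or X18F39 and 2 without X18F40, but 17 without X5F5239 and 10 without X18F36.

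In muscle Kdm5b, Kdm5c, Kdm2b, Kdm7a, Hdac11 and Kmt2b were called in 9 of 9 fits, Kdm4a, Setd1a and Hdac7 in 7, Ezh1 in 6, Setd1b in 3, Hdac10 in 2, and Sirt7 and Kdm1b in 1. The muscle count was 7 without X5S4299 or X18S60, 9 without X18S57 and 22 without X5S5238.

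Whether an enzyme aged differently in 2 tissues was tested directly, as the difference of the 2 age changes in a fit of all 27 samples. That fit uses a single spread per gene for all tissues, although the tissues differ in spread. For adipose tissue this spread can be too small, since the fit of all 27 samples called more enzymes with age there than the fit of that tissue alone. Differences that involve adipose tissue are therefore less certain than their adjusted p. Between liver and muscle 11 of 52 enzymes differed, where 17.5% of all genes did. Between liver and adipose tissue 3 differed (15.6% of all genes), and between adipose tissue and muscle 4 (14.7%). With the mouse number as a block, the liver and adipose count was 5, Kdm1b (adjusted p = 0.040) and Kmt2d (adjusted p = 0.047) being added, and that of liver and muscle was 12, Kmt2c (-0.62, adjusted p = 0.049) being added. The direction of the differences depended on the scaling. Between liver and muscle 4 were positive and 7 negative, against 4 and 4 with scaling that ignored the 20 genes of highest abundance and 2 and 6 with quantile normalization. Between liver and adipose tissue 1 was positive and 2 negative, against 6 and 1 and 2 and 4, and the first of these scalings moved the median of all genes to 0.18.

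The liver and muscle differences were led by demethylases. Kdm2b had log2 changes of -0.44 in liver and 0.72 in muscle (difference -1.16, SE 0.19, adjusted p = 0.000294), and Kdm7a of -0.68 and 0.46 (difference -1.14, SE 0.29, adjusted p = 0.00853). Kdm5a had -0.52 and 0.37 (difference -0.88, SE 0.19, adjusted p = 0.00266). The differences of Kdm6a (-0.63, adjusted p = 0.0430) and Kdm8 (-0.61, adjusted p = 0.0440) had the same sign, that is, the change in liver was the lower one.

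Sirt7 went the opposite way, with 0.56 in liver and -0.36 in muscle (difference 0.93, SE 0.19, adjusted p = 0.00191), and so did Hdac10 (0.62, adjusted p = 0.0127), Hdac5 (0.57, adjusted p = 0.0482) and Ehmt2 (0.42, adjusted p = 0.0256). Ezh2 (-0.84, adjusted p = 0.0233) and Hdac2 (-0.52, adjusted p = 0.00854) differed too, although neither was called with age in a single tissue. Kdm2b, Kdm7a, Kdm5a, Hdac2, Sirt7 and Hdac10 kept these calls in all 27 fits that left out 1 sample, Ezh2 in 25, Ehmt2 in 23, Kdm6a in 16, Kdm8 in 13 and Hdac5 in 9. The count was 7 without X5L5239 and 7 without X5S5001.

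Adipose tissue differed from muscle for Hdac9 (difference 2.02, SE 0.42, adjusted p = 0.00326), Kdm2b (-0.95, adjusted p = 0.00210), Sirt7 (0.68, adjusted p = 0.0185) and, barely, Hdac2 (-0.38, adjusted p = 0.0499). It differed from liver for Sirt5 (-0.19 in liver, 0.60 in adipose tissue, difference -0.79, SE 0.20, adjusted p = 0.0100), Kdm5a (-0.63, adjusted p = 0.0253) and Hdac5 (0.57, adjusted p = 0.0487). The liver and adipose count was 5 without X5F5239 and 6 without X18F36.

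**Figure D4:**
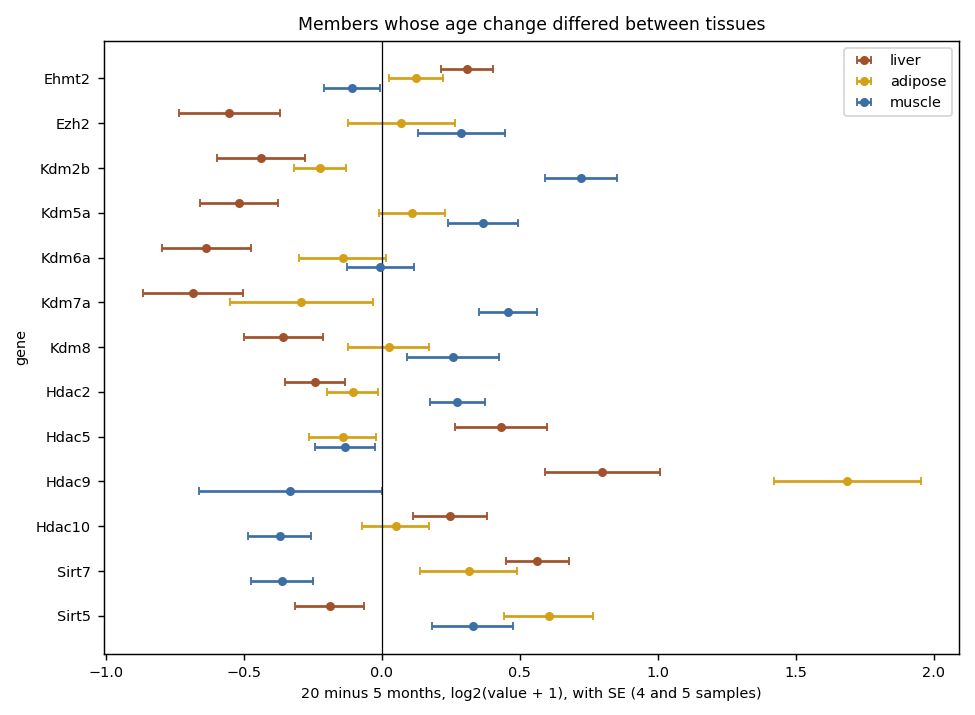
Age change with its SE (horizontal axis, difference of log2(value + 1), 20 minus 5 months) in liver, adipose tissue and muscle for the 13 enzymes whose change differed between 2 tissues. Kdm2b, Kdm5a and Kdm7a lie below 0 in liver and above it in muscle, Sirt7 the reverse, and Hdac9 lies highest in adipose tissue.

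The changes were related to transcript length. The enzymes have long transcripts, with a median of 4620 bases against 3096 for all genes tested in liver. Across the 52 enzymes, Spearman's rho between log2 change and length was -0.55 in liver, -0.60 in adipose tissue and -0.32 in muscle. Across all genes it was -0.33, -0.22 and -0.19. These are correlations over genes of the same libraries, given as a description. The 9 enzymes lower in liver had a median length of 8714 bases and a median GC content of 47.6%, the 4 higher ones 3340 bases and 57.9%. In muscle GC went the other way, with 56.9% in the 10 lower and 48.5% in the 4 higher enzymes.

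With a smooth trend on length and GC removed, 6 enzymes were called in liver (1 higher, 5 lower), 4 in adipose tissue (3 higher, 1 lower) and 9 in muscle (4 higher, 5 lower). The median change of the enzymes was then -0.08, -0.10 and -0.05. In liver Setd1b, Setd2, Kdm6a, Kdm7a and Hdac9 were still called. Sirt7 had an adjusted p of 0.054 there and Ehmt2 of 0.090. In muscle Kdm5b, Kdm5c, Kmt2b, Kdm2b, Kdm7a, Hdac7 and Hdac11 were still called, and Sirt1 (-0.35, adjusted p = 0.0316) and Sirt3 (0.39, adjusted p = 0.0493) passed the threshold as well. The part of length and GC in the changes was not tested further.

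**Figure D5:**
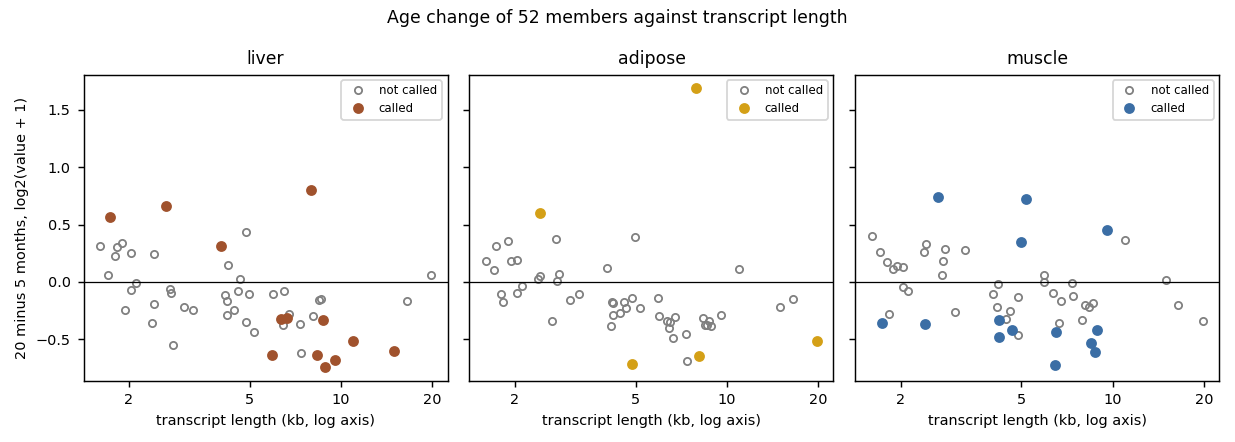
Age change (vertical axis, difference of log2(value + 1), 20 minus 5 months) of 52 enzymes against transcript length (horizontal axis, kb, log scale) in liver, adipose tissue and muscle; filled points have an adjusted p below 0.05. In all 3 panels the longer transcripts lie lower, with rho between -0.60 and -0.32.

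The partners of these enzymes were taken from 8 lists (other methyltransferases, other JmjC proteins, PRC2, COMPASS and corepressor subunits, acetyltransferases, and the enzymes of NAD and S-adenosylmethionine), 87 genes in all. In liver 2 of 84 tested were higher and 17 lower, in adipose tissue 2 of 85 higher and 8 lower, and in muscle 3 of 84 higher and 8 lower. Among all genes 10%, 9.75% and 9.13% were higher and 9.79%, 9.35% and 10.1% lower in these tissues, so the lower counts in adipose tissue and muscle are near the background. All calls in these lists come from the main fit. They were not repeated with other scalings or with the length and GC trend removed, which ended many calls of the enzymes in liver. Of the 10 COMPASS subunits, which carry the H3K4 methyltransferases, 3 were lower in liver, Hcfc1 (-0.53, adjusted p = 0.013), Psip1 (-0.51, adjusted p = 0.031) and Ncoa6 (-0.48, adjusted p = 0.031). Of the 16 corepressor subunits tested 4 were lower there, led by Rcor1 (-0.65, adjusted p = 0.010), the partner of Kdm1a, and Ncor1 (-0.53, adjusted p = 0.015), the partner of Hdac3. Among the acetyltransferases, which oppose the deacetylases, Ep300 fell in liver (-0.64, adjusted p = 0.011) and Crebbp in muscle (-0.43, adjusted p = 0.029).

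Of the other methyltransferases, 1 was higher and 3 lower in liver, with Whsc1 at -0.47 (adjusted p = 0.017), none was called in adipose tissue, and in muscle Smyd2 rose by 0.60 (adjusted p = 0.0075) while Dot1l fell by 0.99 (adjusted p = 0.015). Among the 7 other JmjC proteins, 1 was lower in liver, 1 in adipose tissue and 2 in muscle, where Hr fell by 1.02 (adjusted p = 0.0039). Of the PRC2 subunits, Rbbp7 was lower in liver (-0.47, adjusted p = 0.016) and Phf1 higher (0.34, adjusted p = 0.044), Phf19 was higher in adipose tissue (0.52, adjusted p = 0.047), and none was called in muscle.

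Of the 5 enzymes of the S-adenosylmethionine cycle, 2 were lower in liver, 2 lower in adipose tissue, and 1 higher and 1 lower in muscle. Mat1a, the hepatic S-adenosylmethionine synthetase, averaged 17191 in young and 6576 in old livers (log2 change -1.40, adjusted p = 0.014). Ahcy, which removes the product inhibitor S-adenosylhomocysteine, fell in liver (-0.75, adjusted p = 0.035), adipose tissue (-1.13, adjusted p = 0.033) and muscle (-0.47, adjusted p = 0.030). Of the other synthetase subunits, Mat2a fell in adipose tissue (-0.75, adjusted p = 0.026) and Mat2b rose in muscle (0.57, adjusted p = 0.021).

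Among genes of NAD synthesis and use, liver had 1 call (10 tested), adipose tissue 3 (11 tested) and muscle 1 (11 tested). Nnmt was lower in old livers (-1.32, adjusted p = 0.019). In adipose tissue Parp1 was higher (0.62, adjusted p = 0.025), and Nmnat3 (-0.62, adjusted p = 0.025) and Cd38 (-0.87, adjusted p = 0.030) were lower. In muscle Nmrk1, a nicotinamide riboside kinase, was higher (0.78, adjusted p = 0.039).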

How the data were processed

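RNA-seq libraries (poly-A, NEBNext Ultra Directional) were sequenced from *Mlx*KO liver, omental adipose tissue and skeletal muscle, with 4 samples per tissue at 5 months and 5 at 20 months, grouped by the labels. Mapping and counting per gene were done by the authors with CLC Genomics Workbench, and the annotation, build and strand setting of that counting are not given in the sources used here. The submitters' processing notes name GRCm38.p6 and mm10. The deposited values are headed CPM but do not have the same sum in every sample. They are a scaled signal, that is, CPM that the authors divided by a further factor for each sample before deposition. Reads were recovered from them: 100% of values were whole multiples of 1 read within 0.1 of a read, and edgeR on those reads called 2578, 2692 and 2453 genes with age in liver, adipose tissue and muscle.

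Values were analysed as log2(value + 1) with limma 3.58.1 in R 4.3.3 (variance trend, Benjamini-Hochberg adjustment over all genes tested, threshold 0.05), as fixed in the design, which had assumed plain CPM. A gene entered a fit when 4 or more of its samples reached a value of 1. Age was tested within a tissue (9 samples). Tissue differences and differences in age change came from 1 fit of all 27 samples, whose samples share the 5-month mice without a block. In that fit the tissues also share a single spread per gene. Fold changes are on the log2(value + 1) scale and understate those of low genes, whereas ratios are of mean values. Signs are 20 minus 5 months, or the first tissue minus the second.

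The numbers shared by the 5-month samples of the tissues were taken as mouse numbers from the sample names, and their block was an alternative. Deviations from the group means correlated with a mean r of 0.136 over 12 pairs of the same number (7 above 0.1) and -0.045 over other numbers. The replicates are separate samples, and p-values measure the spread between them. Counting intervals were not given. Depth was at least 14384695 reads, but counting error still matters for low genes such as Hdac9 in liver, with 5 to 11 reads per sample at 5 months. No libraries in a group were identical (48 pairs).

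The enzymes named are those called for age in a tissue (up to 6 in each direction where more than 12 were), those called in 2 tissues or differing between tissues, the 3 with the largest tissue difference at 5 months in each direction of each pair, and a set of 15 always given (Sirt1, Sirt3, Sirt6, Hdac3, Hdac4, Hdac9, Hdac11, Ezh1, Ezh2, Kdm1a, Kdm6a, Kdm6b, Setd2, Kmt2d and Kmt5a). Kdm3b, called in liver but outside these rules, is given with its values as well. Of other lists, at most 3 genes with the smallest adjusted p are named per tissue. The members and lists were chosen with earlier results of these data known. Alternatives were other pseudocounts, filters, scalings and weights, count models for the recovered reads (edgeR 4.0.16, DESeq2 1.42.0), removal of a trend on length and GC, and leaving out each sample. Scripts were tested on simulated data. Tables were handled in Python 3.11.15 with pandas 2.3.3. Transcript lengths, GC content, shared words and exon overlaps came from GENCODE. For length and GC the longest transcript of a gene was used, protein-coding where there was one. Promoter windows came from RefSeq annotation of GRCm38.p6. The result of 1 marker list is not reported here.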

Additional observations from a re-analysis of the deposited data

Results flagged for a closer look

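Single samples stood far from the other samples of their group, by Dixon's test at the 95% level, in 15 of 222 groups of values examined, and chance gives about 1 in 20. In liver these were Kdm6a in X18L18 (10.5 against 17.2 to 18.4 in the others) and, in X18L74, Kmt2d (63.3 against 47.6 to 50.2), Setd1a (35.0 against 42.1 to 45.0) and Kdm6b (41.0 against 48.3 to 50.8). In adipose tissue they were Kdm5a in X5F5238 (34.2 against 42.1 to 43.1), Kmt2b in X5F5239 (49.6 against 69.0 to 69.9), Hdac10 in X18F40 (13.9 against 10.99 to 11.5), Sirt3 and Hdac3 in X18F36 (9.76 against 6.93 to 7.47, and 41.1 against 32.4 to 34.7), and Setd7 and Kdm6b in X18F38 (69.6 against 98.8 to 105.5, and 23.9 against 39.8 to 44.6). In muscle they were Kmt2d in X5S5238 (92.3 against 128.7 to 135.3) and in X18S56 (70.0 against 98.9 to 106.8), Kdm1b in X18S57 (18.8 against 15.6 to 16.4) and Hdac2 in X5S5239 (36.2 against 41.6 to 42.4).

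The age change differed between tissues, by the test of the difference in the fit of 27 samples, in 18 cases. Liver minus adipose tissue gave -0.63 for Kdm5a, 0.57 for Hdac5 and -0.79 for Sirt5. Liver minus muscle gave -1.16 for Kdm2b, -1.14 for Kdm7a, -0.84 for Ezh2, -0.88 for Kdm5a, -0.61 for Kdm8, -0.52 for Hdac2, 0.57 for Hdac5, 0.93 for Sirt7, 0.62 for Hdac10, 0.42 for Ehmt2 and -0.63 for Kdm6a. Adipose tissue minus muscle gave -0.95 for Kdm2b, -0.38 for Hdac2, 0.68 for Sirt7 and 2.02 for Hdac9. The pairs of tissues share samples, so these values are not independent of each other.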

How the results depend on the processing

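No called age change, called difference in age change or named tissue difference reversed under any alternative. For the enzymes named as called with age, 343 of the repeated values kept their direction and their side of the threshold and 71 kept the direction only, and with 1 sample left out these were 161 and 127. For the differences in age change the counts were 214 and 37, and 392 and 94. The tissue differences followed here, the 3 largest in each direction of each pair, kept both throughout (252 and 486 values). The other called tissue differences were not followed in this way, and the direction of their counts depended on the scaling. The number of enzymes called with age in liver was 6 with the length and GC trend removed, and in muscle 9. In adipose tissue, where the count was 5, it was 1 without a filter, 3 with scaling that left out the 20 most abundant genes, 3 without the variance trend, 33 with sample quality weights, 17 with DESeq2 on recovered reads and 19 when all 27 samples were in 1 fit. For liver against adipose tissue the count of differences was 6 with quantile normalization, 7 without the 20 most abundant genes and 18 with sample quality weights. Those weights gave 19 for liver against muscle and 11 for adipose tissue against muscle. The causes were not tested. With the replicate block (mouse number) the liver and adipose count was 5, that of liver against muscle 12 and that of adipose tissue against muscle 4. With 1 sample left out, the counts with age ranged from 3 to 13 (liver), 1 to 17 (adipose tissue) and 7 to 22 (muscle), from 2 to 6, 7 to 12 and 3 to 6 for the differences (liver against adipose tissue, liver against muscle, adipose tissue against muscle), and from 31 to 36, 35 to 38 and 26 to 30 for the tissues. Depth limits Hdac9 in liver and Kdm4d throughout.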
